A study of Mus musculus with 4 samples.

Results

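The interferon response and antigen presentation by MHC class I were followed in mouse islets through 9 genes, namely *Irf1*, *Irf7*, *Isg15*, *Ifit1*, *Ifit3*, *B2m*, *H2-K1*, *Tap1* and *Psmb8*. They were chosen by name as well-known members of these systems and account for 9 of the 24157 gene symbols and unnamed lncRNAs in the table. All 9 were found, in 14 of 33923 entries. For a symbol with several entries, the most abundant entry was taken.

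Whole islets hold beta, alpha, delta and other cells, and their RNA was sequenced after culture at low or high glucose. The islets came from male C57bl6 mice, 3 months old, and were pooled before they were divided, so all libraries share their source. They were kept overnight at 11 mM glucose and then for 2 h at 2.8 mM glucose. The methods of the study then give 12 h at 2.8 mM (low glucose) or 16.8 mM (high glucose), but the labels of the low glucose libraries state 2 h. The labels of the high glucose libraries state 12 h. If the labels are right, time and glucose differ together and cannot be told apart. There were 2 libraries at each concentration, with the numbers 1 and 2. The labels name no knockout, transgene or cytokine for either group, and the comparison asks how glucose bears on these genes. A p-value here measures only the spread between libraries of 1 pool, which may be technical. In whole islets, fewer cells of a type and less RNA per cell cannot be told apart.

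Interferons are secreted proteins that signal through JAK kinases and STAT factors and turn on genes carrying an interferon-stimulated response element (ISRE) or a gamma-activated site (GAS). Among the induced genes are antiviral effectors such as *Isg15* and the *Ifit* family, and the machinery that cuts proteins into peptides, moves them into the endoplasmic reticulum and loads them on MHC class I molecules. In islets, class I molecules on beta cells present peptides to cytotoxic T cells, and their high level is a known feature of autoimmune diabetes.

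The sequence in front of the start site was searched for fixed letters of these elements. It is printed for 7 of the genes, namely the 6 with a match and *Tap1*, the neighbour of *Psmb8*. Each stretch runs 5′ to 3′ from base -160 to base -41 relative to the RefSeq start and comes from RefSeq promoters of the GRCm38.p6 build, in which all 9 genes were matched. Capitals mark a match to the ISRE letters GAAANNGAAA (GAAA repeated after 2 bases) or to the GAS letters TTCNNNGAA, searched on both strands.
Isg15, chr4:156200859-156200978, minus strand: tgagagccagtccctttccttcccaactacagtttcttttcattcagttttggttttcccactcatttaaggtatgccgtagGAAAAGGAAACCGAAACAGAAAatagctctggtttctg
Ifit1, chr19:34640729-34640848, plus strand: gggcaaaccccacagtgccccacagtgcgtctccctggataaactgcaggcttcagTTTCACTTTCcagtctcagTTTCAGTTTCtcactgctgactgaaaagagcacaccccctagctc
Ifit3, chr19:34583369-34583488, plus strand: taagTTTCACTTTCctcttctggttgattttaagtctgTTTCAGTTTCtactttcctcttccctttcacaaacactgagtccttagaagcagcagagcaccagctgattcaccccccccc
B2m, chr2:122147527-122147646, plus strand: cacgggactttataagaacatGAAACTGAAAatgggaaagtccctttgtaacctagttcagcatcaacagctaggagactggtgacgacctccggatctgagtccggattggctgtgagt
Irf1, chr11:53769854-53769973, plus strand: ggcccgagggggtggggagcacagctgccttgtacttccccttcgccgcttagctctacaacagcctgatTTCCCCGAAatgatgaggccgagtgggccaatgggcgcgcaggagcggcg
Psmb8, chr17:34198035-34198154, plus strand: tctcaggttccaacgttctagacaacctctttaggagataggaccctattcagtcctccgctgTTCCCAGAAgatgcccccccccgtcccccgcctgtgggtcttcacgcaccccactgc
Tap1, chr17:34187396-34187515, plus strand: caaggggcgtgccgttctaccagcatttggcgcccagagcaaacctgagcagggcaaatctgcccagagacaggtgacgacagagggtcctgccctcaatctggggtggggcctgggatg
The ISRE letters stood in the promoters of *Isg15*, *Ifit1*, *Ifit3* and *B2m*, which is 4 of 9 genes, and in 3.99% of 27025 genes when windows of the same length (250 bases before the start to 50 after it) were searched. In *Isg15* 3 matches overlapped each other between bases -78 and -57, and in *Ifit1* and *Ifit3* the matches were on the opposite strand. The GAS letters stood in *Irf1* and *Psmb8*, 2 of 9 genes against 9.55% of all. Neither set of letters was found in the windows of *Irf7*, *H2-K1* and *Tap1*. A match describes the sequence and does not show that a factor binds there. Fixed letters miss elements that differ from them by a base, so a gene without a match may still carry an element.

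Values were RPKM, reads scaled to transcript length in kb and to library depth. At recovered depths of 50800000 to 60710000 reads a library, 1 read in 1 kb was worth 0.0165 to 0.0197 RPKM. The length behind each value was the genomic span of the transcript, introns included, since 78.4% to 79.5% of low values in a library were whole reads (within 0.1 read) over that span and 18.1% to 19.2% over summed exons. Reads of genes that overlap a span therefore enter its value, on either strand, since the library kit (TruSeq RNA v2) does not mark strand. The libraries of a group correlated at r = 0.980 across the transcripts tested, and libraries of different groups at 0.927 to 0.939. Changes are given as the log2 fold change of RPKM + 0.5, high over low glucose, which understates the change of low genes, with adjusted p from limma with Benjamini-Hochberg adjustment over 7867 transcripts of at least 1 RPKM on average. A gene was called when its adjusted p was under 0.05.

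Of the 9 genes, 6 reached that minimum and 1 of these 6, *Psmb8*, was called, with a rise at high glucose. Across all tested transcripts 33.4% were called, 10.7% upwards and 22.8% downwards. The other 5 tested genes, *Irf1*, *Irf7*, *B2m*, *H2-K1* and *Tap1*, did not pass the test. The median log2 fold change was 0.17 for the 6 tested genes and -0.11 for all tested transcripts. Among all calls 31.9% were rises with the deposited scaling, 42.3% after quantile normalization, 44.1% after median centring and 41.3% with library sizes that leave out the 10 most abundant genes. The libraries of the 2 glucose levels did not overlap for 4 of the 6 tested genes, with high glucose above low for 3 of them (*B2m*, *H2-K1* and *Psmb8*) and below for *Tap1*. Among all tested transcripts 70.4% did not overlap, 22.2% with high glucose above low and 48.3% with high glucose below low. Counting the genes under the minimum, 5 of 9 did not overlap, against 56.4% of all entries. When limma voom was run on reconstructed reads, *Psmb8*, *B2m* and *Tap1* were called, beside 41.6% of 19076 transcripts.

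**Figure D1:**
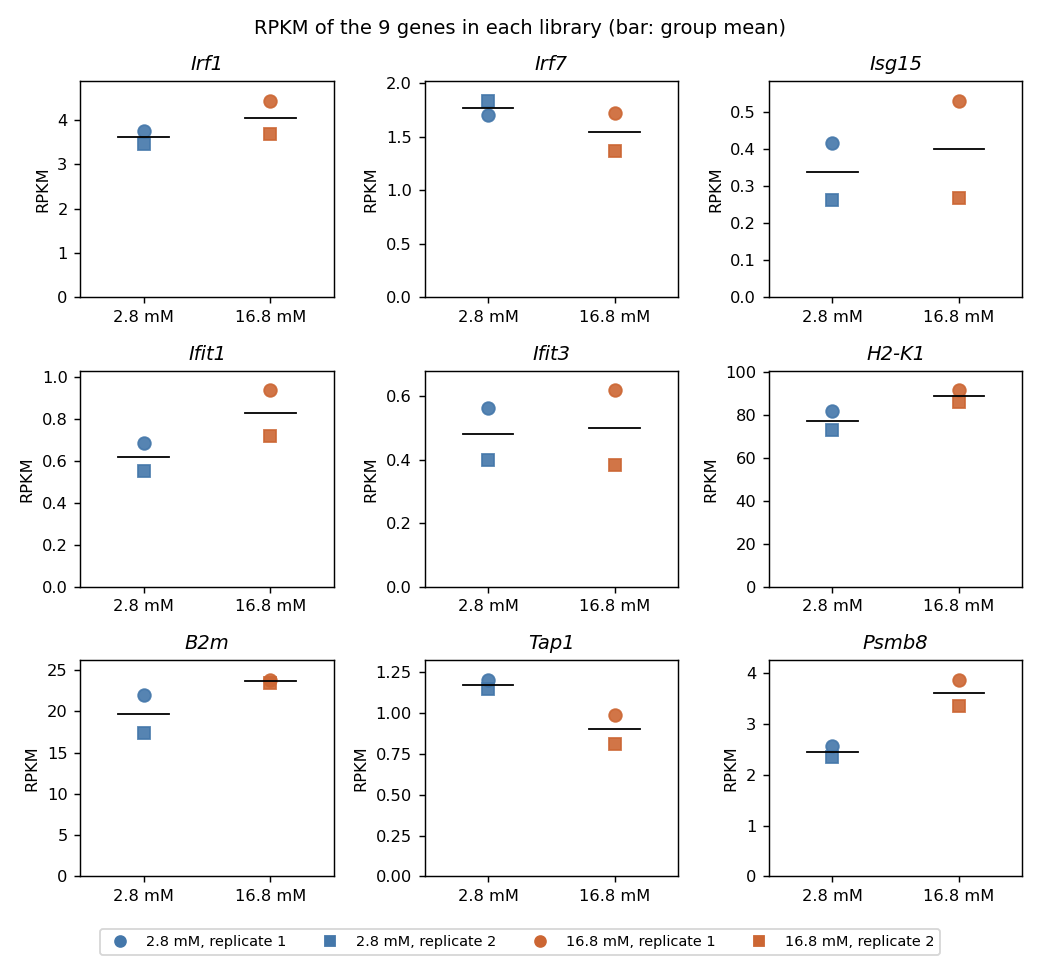
RPKM of the 9 genes, 1 panel a gene on a linear axis from 0, with 1 point for each of the 4 libraries at low (2.8 mM) and high (16.8 mM) glucose and a bar at the group mean (circles are the libraries with number 1, squares those with number 2). *H2-K1* lies between 72.8 and 91.3 RPKM and *Isg15* between 0.262 and 0.532 RPKM, and *Psmb8* is the only called gene of the 6 tested.

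By level per kb of genomic span, the order of the mean over the 4 libraries was *H2-K1* (82.9 RPKM), *B2m* (21.7 RPKM), *Irf1* (3.83 RPKM), *Psmb8* (3.04 RPKM), *Irf7* (1.66 RPKM), *Tap1* (1.04 RPKM), *Ifit1* (0.724 RPKM), *Ifit3* (0.491 RPKM) and *Isg15* (0.370 RPKM). *H2-K1* was 95th and *Isg15* 10334th of 24012 genes ranked by mean RPKM. The values of *H2-K1* and *B2m* were apart from each other and from all others in every library. Neighbours overlapped in range for *Irf1* with *Psmb8*, *Tap1* with *Ifit1*, *Ifit1* with *Ifit3*, and *Ifit3* with *Isg15*, whereas *Psmb8* stayed above *Irf7* and *Irf7* above *Tap1*. Exons of the longest coding transcript covered between 15.9% of the span (*B2m*) and 60.2% (*Irf7*), so levels per kb of exon would be in other proportions.

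The transcription factors of the set are *Irf1*, which is itself induced by interferon gamma through its GAS and drives class I and immunoproteasome genes, and *Irf7*, the factor that amplifies type I interferon production. *Irf1* lies on chromosome 11, 53583516 to 53591876 of NCBI build 37, on the plus strand, with 10 exons. It measured 3.76 and 3.47 RPKM at low glucose and 4.44 and 3.67 RPKM at high glucose. The groups overlapped, since the second high glucose library lay below the first low glucose library. The log2 fold change of *Irf1* was 0.14 (95% interval -0.13 to 0.41, SE 0.11), with an adjusted p of 0.364 by limma. The span of *Irf1* includes *Gm17334* on the other strand, whose level was not examined.

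*Irf7* lies on chromosome 7, 148448605 to 148452380 of build 37, on the minus strand, with 10 exons and an overlap of 45 bp with *Phrf1*. It was 1.70 and 1.83 RPKM at low glucose and 1.72 and 1.36 RPKM at high glucose. Only the second high glucose library lay below the others, and the groups overlapped. *Irf7* had a log2 fold change of -0.16 (95% interval -0.41 to 0.09, SE 0.11), with a limma adjusted p of 0.282. *Phrf1* had a log2 fold change of 0.09 and a limma adjusted p of 0.404.

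The antiviral effectors were under 1 RPKM on average, so they took no part in the main test, and their log2 fold changes and adjusted p are from the limma fit without a minimum, in which 9.13% of 28047 entries were called. *Isg15* encodes a ubiquitin-like protein that is joined to other proteins during the interferon response. It lies on chromosome 4, 155573533 to 155574927 of build 37, on the minus strand, with 2 exons. It held 34 and 19 reads (0.417 and 0.262 RPKM) at low glucose and 45 and 19 reads (0.532 and 0.268 RPKM) at high glucose. In each group the first library lay above the second, and the groups overlapped. The log2 fold change of *Isg15* was 0.09 (95% interval -0.58 to 0.76, SE 0.21), with a limma adjusted p of 0.842. Its sign turned without the second low glucose library (-0.04) and without the first high glucose library (-0.12).

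*Ifit1* and *Ifit3* encode proteins with tetratricopeptide repeats, and *Ifit1* binds viral RNA that lacks the cap methylation of the host. Both lie on the plus strand of chromosome 19 in build 37 with 2 exons each, *Ifit3* from 34658021 to 34663221 and *Ifit1* from 34715361 to 34724499. *Ifit1* held 366 and 262 reads (0.686 and 0.553 RPKM) at low glucose and 519 and 334 reads (0.937 and 0.721 RPKM) at high glucose. Both high glucose libraries lay above both low glucose libraries, as in 20.6% of all entries when no minimum was set. The mean of *Ifit1* went from 0.620 ± 0.0944 RPKM to 0.829 ± 0.153 RPKM (SD, n = 2). Its log2 fold change was 0.25 (95% interval -0.15 to 0.64, SE 0.12), and the adjusted p of 0.310 by limma missed the threshold.

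*Ifit3* was 0.565 and 0.399 RPKM at low glucose and 0.619 and 0.383 RPKM at high glucose. The highest and the lowest values were both high glucose libraries. *Ifit3* had a log2 fold change of 0.02 (95% interval -0.54 to 0.59, SE 0.18), with a limma adjusted p of 1. Its sign turned without the second low glucose library (-0.10) and without the first high glucose library (-0.15). The near-identical neighbour *I830012O16Rik* was 0.465 and 0.339 RPKM at low glucose and 0.511 and 0.329 RPKM at high glucose, the same order of libraries, and reads may be split between these copies.

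The class I molecule consists of a heavy chain, such as that of *H2-K1*, and the light chain beta 2-microglobulin of *B2m*, without which class I does not reach the cell surface. *H2-K1* lies on chromosome 17, 34132962 to 34137278 of build 37, on the minus strand, with 8 exons. It measured 81.7 and 72.8 RPKM at low glucose and 91.3 and 85.8 RPKM at high glucose. Both high glucose libraries lay above the low glucose libraries, with means of 77.3 ± 6.33 and 88.6 ± 3.91 RPKM (SD, n = 2). The log2 fold change of *H2-K1* was 0.20 (95% interval -0.12 to 0.52, SE 0.13) and did not pass the test, with a limma adjusted p of 0.290. After median centring it was 0.28, with an adjusted p of 0.028, and after quantile normalization 0.25, with an adjusted p of 0.042, so the call for *H2-K1* turned on the scaling.

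*B2m* lies on chromosome 2, 121973422 to 121978819 of build 37, on the plus strand, with 4 exons. It measured 21.99 and 17.4 RPKM at low glucose and 23.8 and 23.5 RPKM at high glucose. The high glucose libraries lay close together and above both low glucose libraries, of which the second was far below the first. For *B2m* the log2 fold change was 0.27 (95% interval -0.08 to 0.61, SE 0.15), with a limma adjusted p of 0.193. Without the first low glucose library it was 0.43, with an adjusted p of 0.04. *B2m* lies wholly inside *Patl2* on the other strand. *Patl2* held 6960, 4905, 7828 and 6462 reads in the 4 libraries and *B2m* held 6936, 4881, 7800 and 6437. The part of *Patl2* outside *B2m* thus held 24 to 28 reads a library, so nearly all reads of either value lay within the span of *B2m*.

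The ratio of *H2-K1* to *B2m*, both per kb of span, was 3.72 and 4.18 at low glucose and 3.84 and 3.65 at high glucose. These values overlapped, so no shift between heavy and light chain was seen beyond the spread of the libraries.

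*Tap1* and *Psmb8* are next to each other on chromosome 17, 495 bp apart on the plus strand, within the MHC. *Tap1* encodes a subunit of the peptide transporter into the endoplasmic reticulum and *Psmb8* a catalytic subunit of the immunoproteasome, which replaces the constitutive subunit of *Psmb5*. *Psmb8*, 34334666 to 34338399 of build 37 with 6 exons, held 489 and 398 reads at low glucose and 765 and 556 reads at high glucose, which is 2.57 and 2.35 RPKM against 3.87 and 3.36 RPKM. Both high glucose libraries lay above both low glucose libraries. The mean of *Psmb8* rose from 2.46 ± 0.153 to 3.61 ± 0.359 RPKM (SD, n = 2), a ratio of 1.47. The log2 fold change was 0.47 (95% interval 0.23 to 0.72, SE 0.10) with a limma adjusted p of 0.0138. With any 1 library left out it was 0.38 to 0.56 and was called each time, whereas in the limma fit without a minimum the adjusted p was 0.078. Its span overlaps *Gm20496* on the other strand for 2140 bp. The level of *Gm20496* was not examined, and its reads may enter the value of *Psmb8*.

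*Tap1*, 34324498 to 34334170 of build 37 with 11 exons, held 679 and 575 reads at low glucose and 579 and 398 reads at high glucose, which is 1.20 and 1.14 RPKM against 0.986 and 0.810 RPKM. Both high glucose libraries lay below both low glucose libraries. The mean of *Tap1* was 1.17 ± 0.0402 RPKM at low and 0.898 ± 0.125 RPKM at high glucose (SD, n = 2). Its log2 fold change was -0.26 (95% interval -0.47 to -0.05, SE 0.09), and the limma adjusted p of 0.0587 missed the threshold. Without the first high glucose library it was -0.35, with an adjusted p of 0.0078, and without either low glucose library *Tap1* was under the minimum. The span of *Tap1* overlaps *Psmb9* on the other strand for 212 bp.

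**Figure D2:**
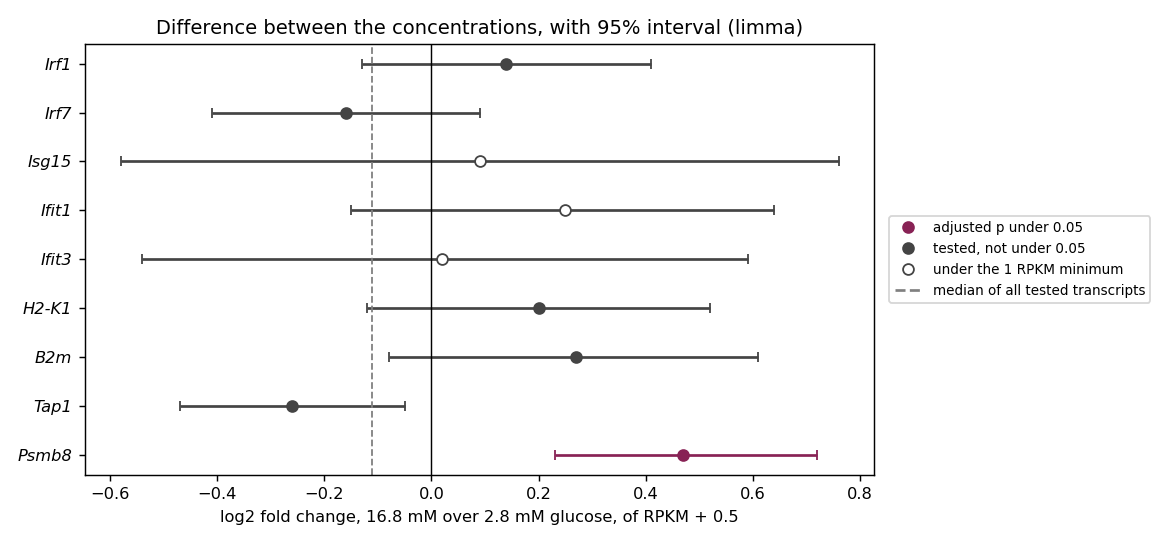
Log2 fold change of RPKM + 0.5, high over low glucose, of each of the 9 genes with its 95% interval from limma, and the median of all tested transcripts as a line. The interval of *Psmb8* (0.23 to 0.72) lies above 0 and that of *Tap1* (-0.47 to -0.05) below it, while the other 7 include 0.

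Ratios within a library set the neighbours side by side. The ratio of *Psmb8* to *Tap1*, both per kb of span, was 2.14 and 2.05 at low glucose and 3.92 and 4.14 at high glucose, with no overlap. Over *Psmb9*, another immunoproteasome subunit, *Psmb8* was 1.73 and 1.95 at low and 3.17 and 3.93 at high glucose. The ratio of *Psmb9* to *Tap1*, which share a promoter region and lie on opposite strands, was 1.24 and 1.05 at low glucose and 1.24 and 1.05 at high glucose, the same in both groups. A ratio shows unequal change and not which gene changed.

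The genes whose pattern over the 4 libraries was nearest to that of *Psmb8*, by Euclidean distance of centred log2 values among 6808 genes, were *Nab2* (distance 0.023), *Meg3* (distance 0.0259) and *Dmpk* (distance 0.031). With 4 libraries such likeness is common, since 794 genes, or 11.7%, had a Pearson r above 0.95 with *Psmb8*.

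The rest of the pathway was read from lists of genes. Of 150 other pathway genes in the table, 58 were tested, 8 rose and 6 fell, so 24.1% were called against 33.4% of all transcripts. By direction, 10.7% of all transcripts rose and 22.8% fell. The median log2 fold change of the 58 genes was 0.05.

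Among 19 class I heavy chain genes, 16 were tested, 1 rose and 0 fell at an adjusted p under 0.05 in limma. That is 6.25% called, against 33.4% of all transcripts. The gene that rose, *H2-T23*, encodes Qa-1, a non-classical molecule seen by NKG2A receptors. It went from 14.3 and 12.3 RPKM at low glucose to 19.1 and 16.8 RPKM at high glucose, a log2 fold change of 0.42 with a limma adjusted p of 0.0487. Its call was kept in 12 of 18 settings (the fit described here and 17 alternatives) and was lost without the second low glucose library and without either high glucose library. *H2-D1* was 76.9 and 64.6 RPKM at low and 80.1 and 76.0 RPKM at high glucose. The entry named *H2-L* was 68.8 and 57.0 RPKM at low and 72.1 and 68.3 RPKM at high glucose, the same order of libraries. No reads were recovered for the *H2-L* entry, which may count reads of *H2-D1* again. Whether these mice carry a separate *H2-L* gene was not examined. The heavy chain genes are near-identical in part, so reads may be shared between *H2-K1*, *H2-D1*, *H2-L* and the *H2-Q* genes, and their values are uncertain to that extent. The number of heavy chain genes called was 8 of 16 after median centring and 5 of 16 after quantile normalization, when 47.9% and 47.4% of all transcripts were called.

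Of 10 genes for class I peptide loading, 9 were tested, 1 rose and 3 fell (44.4% called, against 33.4% of all transcripts). The 3 that fell are chaperones and a disulphide isomerase of the endoplasmic reticulum that fold many proteins besides class I. *Calr* (calreticulin) fell from 240 and 223 RPKM to 90.7 and 82.2 RPKM, a log2 fold change of -1.42 with a limma adjusted p of 0.000663. *Canx* (calnexin) fell from 15.9 and 15.8 RPKM to 9.62 and 9.13 RPKM, a log2 fold change of -0.73. Both were called in all 18 settings. *Pdia3* (ERp57), which bridges to tapasin in the loading complex, fell from 33.3 and 31.3 RPKM to 24.4 and 23.5 RPKM. Its log2 fold change was -0.42, and it was called in 13 of 18 settings. The call was lost without the first low or either high glucose library and without a minimum. It was also lost with library sizes that leave out the 10 most abundant genes.

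*Tapbpl*, a tapasin-like peptide editor, was the gene that rose, from 3.41 and 3.07 RPKM to 4.67 and 4.08 RPKM, a log2 fold change of 0.38 with a limma adjusted p of 0.0335. That call was lost without the second low or the first high glucose library. *Tapbp*, which encodes tapasin, was 10.5 and 9.88 RPKM at low and 12.6 and 12.5 RPKM at high glucose, with no overlap, but its limma adjusted p was 0.0816. *Tap2*, the partner of *Tap1* in the transporter, had a log2 fold change of -0.11 with a limma adjusted p of 0.370. *Erap1*, which trims peptides in the endoplasmic reticulum, had -0.14 with a limma adjusted p of 0.207. *Nlrc5*, the transactivator of class I genes, was below the minimum at 0.0367 to 0.0455 RPKM in the 4 libraries.

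**Figure D3:**
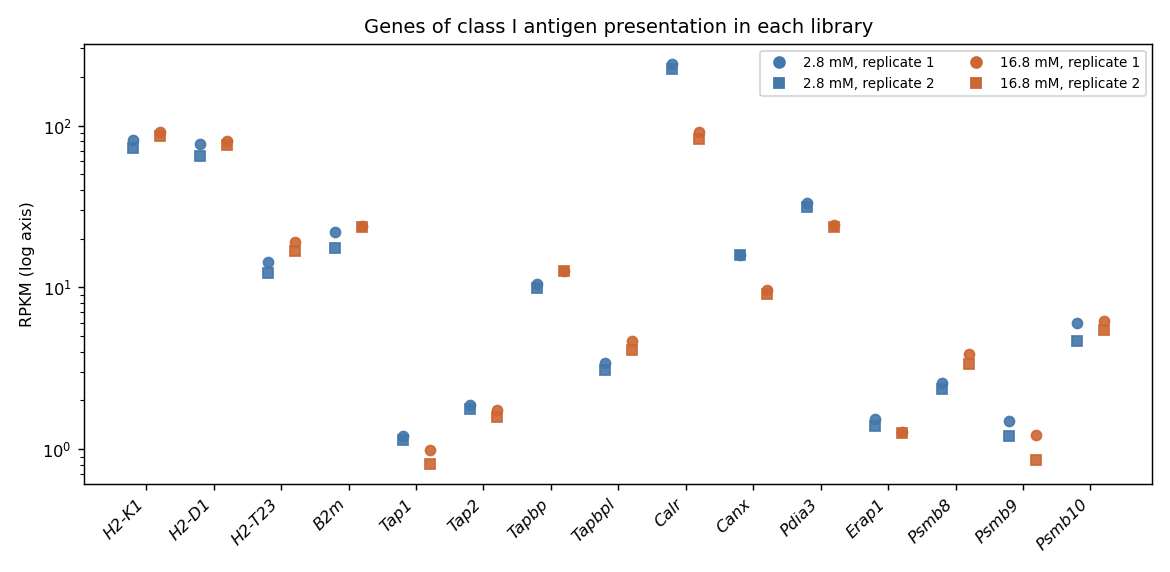
RPKM in each of the 4 libraries (log axis) for genes of class I antigen presentation, low glucose and high glucose side by side. *Calr* and *Canx* lie lower at high glucose, *Psmb8* and *Tapbpl* lie higher, and *H2-K1* and *B2m* lie slightly higher without passing the test.

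Among 7 immunoproteasome genes, all tested, 2 rose and 0 fell by the limma test (28.6% called, against 33.4% of all transcripts). These were *Psmb8* and *Pomp*, a chaperone of proteasome assembly that serves constitutive proteasomes too. *Pomp* went from 2.68 and 2.21 RPKM to 3.25 and 3.24 RPKM, a log2 fold change of 0.35 with a limma adjusted p of 0.0414, called in 14 of 18 settings but not without the second low glucose library or either high glucose library. The other catalytic subunits of the immunoproteasome did not pass: *Psmb9* was 1.49 and 1.20 RPKM at low and 1.22 and 0.854 RPKM at high glucose (limma adjusted p 0.152), and *Psmb10* had a log2 fold change of 0.12 (limma adjusted p 0.548). The subunits they replace did not pass either, with limma adjusted p of 0.383 for *Psmb5*, 0.865 for *Psmb6* and 0.157 for *Psmb7*. The ratio of *Psmb8* to *Psmb5* was 0.228 and 0.253 at low glucose and 0.34 and 0.291 at high glucose, with no overlap.

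Interferons were at or near 0. *Ifng* and the 2 lambda interferon genes were listed at 0 RPKM in all 4 libraries, and *Ifnb1* held 1 read in each low glucose library and 0 in each high glucose library. Of 12 interferon and receptor genes only *Ifnar1*, a chain of the type I receptor, reached the minimum, and it was 1.21 and 1.13 RPKM at low and 1.05 and 0.968 RPKM at high glucose, with a limma adjusted p of 0.191. Of 13 signalling genes 5 were tested, 1 rose and 1 fell (40% called, against 33.4% of all transcripts). *Socs3*, an inhibitor of cytokine signalling that many cytokines induce, rose from 4.51 and 3.92 RPKM to 6.87 and 6.83 RPKM, a log2 fold change of 0.64 with a limma adjusted p of 0.00562, and was called in all 18 settings. *Jak1*, a kinase bound to interferon receptors, fell from 1.27 and 1.22 RPKM to 0.870 and 0.842 RPKM, a log2 fold change of -0.36 with a limma adjusted p of 0.0108, and was called in all 15 settings that tested it.

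Of 12 genes in the interferon regulatory factor list, 8 were tested, and 0 rose and 1 fell by the limma test. That is 12.5% called, against 33.4% of all transcripts. The 1 that fell, *Irf2bp2*, encodes a corepressor that binds IRF2 and is not itself an interferon regulatory factor. It went from 13.5 and 13.8 RPKM to 10.7 and 10.4 RPKM, a log2 fold change of -0.36 with a limma adjusted p of 0.0437. *Irf2bp2* lost its call when any 1 library was left out. The call was also lost with library sizes that leave out the 10 most abundant genes.

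Of 69 interferon-stimulated genes 67 were in the table, 50 of them under the minimum. Of the 17 tested, 5 rose and 1 fell, which is 35.3% against 33.4% of all transcripts. By direction, 10.7% of all transcripts rose and 22.8% fell. Rises were thus the larger part of the calls in this list, and falls the larger part of all calls. This difference was not tested. The median log2 fold change of the 17 genes was -0.05. Of all 67, high glucose lay above low for 25, below for 13 and overlapped for 29. Of all entries 56.4% did not overlap in either direction, and 20.6% lay above. With voom on reconstructed reads 61 were tested and 23 called (37.7% against 41.6% of all). With voom and the replicate number as a block 30 were called (49.2% against 56.5%). These voom counts take rises and falls together. *Ifitm2*, of a family that blocks virus entry, rose from 8.57 and 6.78 RPKM to 12.5 and 10.9 RPKM, a log2 fold change of 0.58 with a limma adjusted p of 0.0221. *Irgm1*, an immunity-related GTPase, rose from 1.42 and 1.32 RPKM to 2.41 and 1.85 RPKM, a log2 fold change of 0.48 with a limma adjusted p of 0.0195. Each of these was called in 17 of 18 settings, the exception being the fit without a minimum. *Lgals3bp*, a secreted glycoprotein that binds galectins, rose from 33.7 and 30.5 RPKM to 46.3 and 42.7 RPKM, a log2 fold change of 0.46, and was called in 14 of 18 settings, with its call lost when the second low or either high glucose library was left out. The remaining calls of the list, named after their values were seen, were *Psmb8* itself, *Dtx3l* (log2 fold change 0.31) and *Tor3a*, which fell (-0.35). Both *Dtx3l* and *Tor3a* lost their call without the first low glucose library, and *Tor3a* also without the second high glucose library. *Tor3a* was not called either with library sizes that leave out the 10 most abundant genes.

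**Figure D4:**
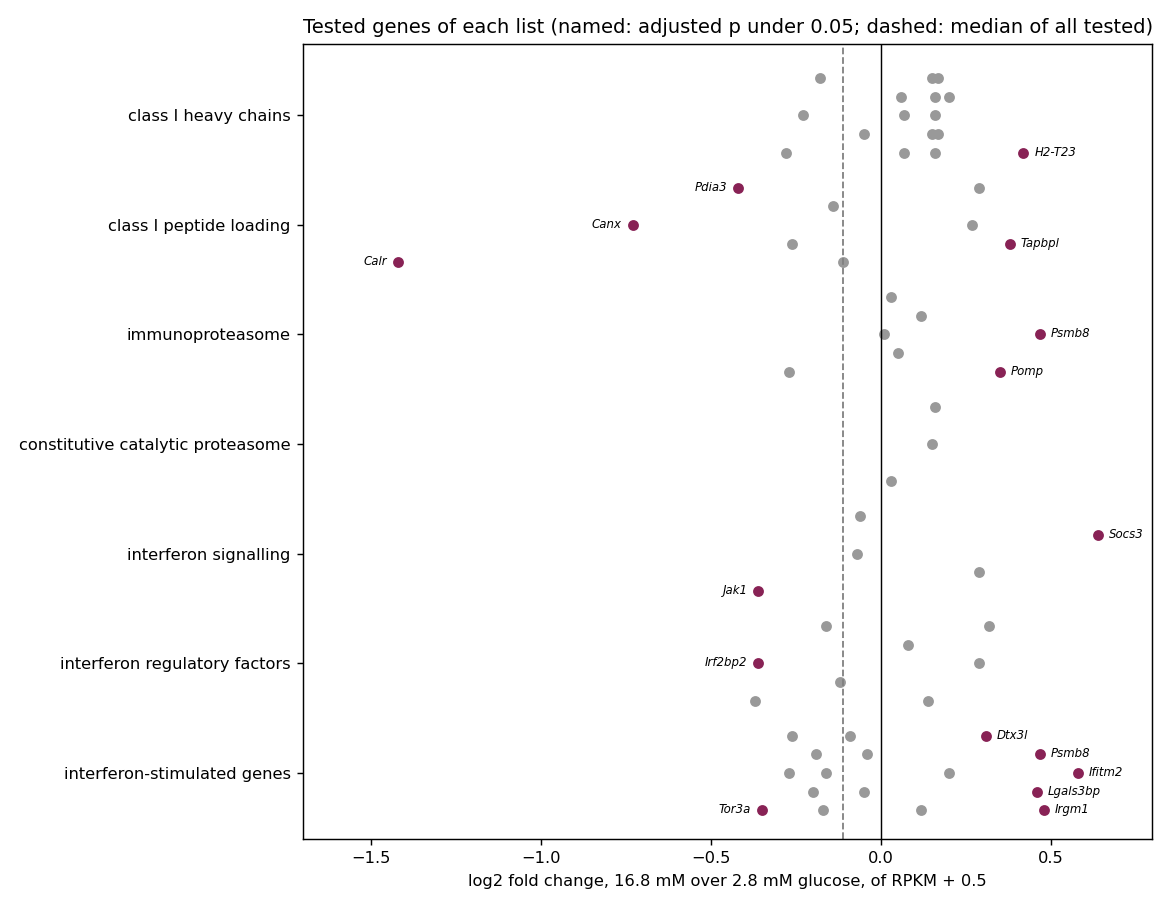
Log2 fold change of RPKM + 0.5, high over low glucose, of every tested gene in 7 lists of the pathway, 1 point a gene, with called genes named and the median of all tested transcripts (-0.11) dashed. Most points lie between -0.4 and 0.4 on both sides of 0, and *Calr* and *Canx* lie farthest to the left.

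The libraries of a group also differed from each other. The first library lay above the second in both groups for 8 of the 9 genes (all but *Irf7*, for which this held at high glucose alone), for 74.3% of tested transcripts and for 49.5% of all entries. Markers of several cell types, endocrine ones included, were also higher in the first library. In both groups this held for 4 of 4 alpha cell markers and 3 of 3 delta and pancreatic polypeptide cell markers. For stromal markers it held for 3 of 5 and for beta cell markers for 2 of 6. The summed level of 10 macrophage and leukocyte markers, led by *Cd68*, was 15.0 and 11.1 RPKM at low and 16.4 and 12.1 RPKM at high glucose, and the first library was higher in both groups for 9 of 10. The leukocyte marker *Ptprc* was at 0.0163 to 0.0258 RPKM and *Cd3e*, a marker of T cells, was listed at 0. The sum of 7 endothelial markers was 4.22 and 2.96 RPKM at low and 4.87 and 3.47 RPKM at high glucose, with the first library higher for all 7. Acinar and duct markers went the opposite way: the sum of 6 acinar markers was higher in the second library of each group, with 83.3 and 242 RPKM at low and 203 and 426 RPKM at high glucose. The part of these cells in the results was not tested.

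Between the glucose levels, the macrophage, endothelial and acinar sums overlapped. Of the endothelial markers, *Esam* alone was tested and was not called (limma adjusted p 0.699). *Pecam1*, *Cdh5* and *Flt1*, under the minimum and named after their values were seen, lay higher in both high glucose libraries. Their ratios of means were 1.76, 1.60 and 1.67, with voom adjusted p of 0.00247, 0.0101 and 0.000123. *Kdr*, *Plvap* and *Tie1*, also under the minimum, overlapped between the glucose levels. Their ratios of means were 0.96, 1.02 and 1.26, with voom adjusted p of 0.85, 0.85 and 0.27. The 6 acinar markers had a median log2 fold change of 1.05, with limma adjusted p of 0.0810 to 0.167 and voom adjusted p of 0.0036 to 0.0211. The duct marker *Krt19* was 1.27 and 3.96 RPKM at low and 4.31 and 7.56 RPKM at high glucose, with no overlap, a log2 fold change of 1.15, a limma adjusted p of 0.0728 and a voom adjusted p of 0.00264. Of the 3 tested macrophage and leukocyte markers only *Cd14* was called, and it rose from 0.927 and 0.910 RPKM to 1.94 and 1.87 RPKM. Its log2 fold change was 0.76 with a limma adjusted p of 0.000831. *Cd68* (log2 fold change 0.10, limma adjusted p 0.679) and *Lyz2* (-0.15, limma adjusted p 0.629) were not called, and both overlapped. Of 6 beta cell markers 4 rose (66.7%, against 10.7% of all transcripts), and *Ins2* went from 18140 and 15940 RPKM to 30020 and 27400 RPKM.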

How the data were processed

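RNA-seq was analysed for 4 libraries of pooled mouse islets, 2 at 2.8 mM and 2 at 16.8 mM glucose. The authors deposited 1 table of RPKM values with no counts, and all of its columns of values were used. STAR, bedtools, DESeq and the mm9 genome (NCBI build 37) are named in the submitters' processing notes. The methods describe them for the alpha and beta cell libraries, so the alignment and counting of the islet libraries are not given in the sources used here. The library kit, TruSeq RNA v2, does not mark strand. RPKM matched whole reads over genomic span, and depth and reads were recovered from it. Spans were found for 98.7% of RefSeq entries. Reads are estimates and PCR duplicates cannot be told apart.

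Identical entries were used once. The test was limma 3.58.1 (R 4.3.3), applied to log2(RPKM + 0.5) of transcripts averaging 1 RPKM or more, with its trend option and Benjamini-Hochberg adjustment at 0.05. All 4 libraries entered the fit without covariates. The number of libraries limits the precision, and for *Isg15*, with 19 to 45 reads, so does depth. Tables and plots were made in Python 3.11.15 (matplotlib 3.10.9, numpy 2.4.6, pandas 2.3.3). Gene positions are from GENCODE on NCBI build 37 and promoters from RefSeq on GRCm38.p6. The spans used to recover reads are from RefSeq and can differ from the positions given. For *Psmb8* the span was 3259 bp against 3734 bp in GENCODE, and for *H2-K1* 4607 bp against 4317 bp. Proteins were not used here.

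The members and lists were chosen with earlier results of these data known. The text names the 9 genes, all peptide loading genes, in other lists the called genes (the 4 largest changes at most) and the most abundant gene, near-identical or overlapping neighbours, the 3 genes nearest to the member with the lowest p, and the most abundant marker of a cell type where it bears on a result. Alternatives were no variance trend, other scalings, minimums, added constants and choices of entries, a replicate block, voom on reconstructed reads with a mean of at least 20, and leaving out each library.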

Additional observations from a re-analysis of the deposited data

How the results depend on the processing

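In the alternatives that gave a value, the direction of each of the 9 genes was kept, except for *Isg15* and *Ifit3*. Without the second low glucose library *Isg15* was -0.04 and *Ifit3* -0.10 on the log2 scale, and without the first high glucose library they were -0.12 and -0.15. Under omission of single libraries *Isg15* ranged from -0.12 to 0.30 and *Ifit3* from -0.15 to 0.19. *Irf7* and these 2 genes were called in no alternative. Calls changed as follows, with limma adjusted p, and the causes were not tested. Median centring called *Irf1* (0.23, p 0.048) and *H2-K1* (0.28, p 0.028), and quantile normalization called *H2-K1* (0.25, p 0.042). All entries as deposited called *Tap1* (-0.26, p 0.049), and without a minimum *Psmb8* lost its call (0.47, p 0.078). Voom on reconstructed reads called *B2m* (0.27, p 0.046) and *Tap1* (-0.38, p 0.036). Under omission of single libraries, *B2m* ranged from 0.10 to 0.43 and *Tap1* from -0.35 to -0.17, called without the first low glucose library and without the first high glucose library, respectively. *Tap1* had no value without either low glucose library, and with 1 RPKM required in every library *Tap1*, *Isg15*, *Ifit1* and *Ifit3* had none.

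The labels number the libraries 1 and 2 but do not say that a number marks a shared batch. With 2 pairs, same-numbered deviations correlated at 0.31 across 7867 transcripts. The replicate block raised the calls from 2628 to 4067 and called *Tap1* (-0.26, p 0.037). Voom gave 7936 calls and voom with the block 10769, which also called *Ifit1* (0.42, p 0.0071), *B2m* (0.27, p 0.012), *H2-K1* (0.20, p 0.017) and *Tap1* (-0.38, p 0.0074). The 14 other pathway genes called of 58 tested (24.1%, all transcripts 33.4%) became 24 after quantile normalization (41.4%, all 47.4%), 28 after median centring (48.3%, all 47.9%) and 26 with the block (44.8%, all 51.7%). They became 8 of 150 without a minimum (5.33%, all 9.13%), 43 of 131 with voom (32.8%, all 41.6%) and 60 of 131 with voom and the block (45.8%, all 56.5%). Leaving out 1 library gave 9 to 11 pathway calls and 2039 to 2734 calls in all, with 9 pathway calls without the first low or the first high glucose library.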

Other observations

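Genes next to the pathway were mostly low. Of 16 genes that sense foreign nucleic acids 2 were tested, *Trim25* (2.04 and 1.96 RPKM at low and 2.67 and 2.21 RPKM at high glucose, limma adjusted p 0.121) and *Ticam1*, named after its values were seen (log2 fold change 0.04). Of all 16, high glucose lay above low for 7, below for 2 and overlapped for 7. Voom on reconstructed reads called 4 of them, against 41.6% of all transcripts. *Ddx58*, *Trim25* and *Ifi204* were higher at high glucose and *Ikbke* lower, again named after their values were seen. Of 9 class II genes *Cd74*, the invariant chain, alone reached the minimum, at 1.69 and 1.41 RPKM at low and 2.18 and 1.67 RPKM at high glucose (limma adjusted p 0.177). Of all 9, high glucose lay above low for 3, below for 1 and overlapped for 5, while 20.6% of all entries lay above. Voom on reconstructed reads called 2 of them, *H2-DMa* and *H2-Ab1*, both higher and named after their values were seen. Their ratios of means were 1.81 and 1.625, with voom adjusted p of 0.000105 and 0.00712.

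Among the 50 interferon-stimulated genes under the minimum, *Oas2*, which makes an activator of RNase L, was the only one called in the limma fit without a minimum. It was chosen after its values were seen. It was 0.0982 and 0.0917 RPKM at low and 0.286 and 0.259 RPKM at high glucose, with no overlap, a ratio of means of 2.87 and a log2 fold change of RPKM + 0.5 of 0.38 (SE 0.02, limma adjusted p 0.0362). *Oas2* held 112, 93, 340 and 257 reads in the 4 libraries. In the same limma fit *Ifnb1* (1, 1, 0 and 0 reads) had an adjusted p of 0.0357 and *Ifnk* (6, 6, 1 and 1 reads) 0.0359. Such a value in this fit can therefore rest on very few reads.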
